A study of Mus musculus with 32 samples.

Results

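Retnla encodes RELM-alpha (also called FIZZ1 or resistin-like alpha), a small secreted, cysteine-rich protein that mouse macrophages make in response to the type 2 cytokines IL-4 and IL-13. It is 1 of the 24421 genes counted in 32 bulk RNA-seq libraries of mouse adipose tissue macrophages. The gene was chosen by its measured values, namely its high level in CD206+ wild-type cells on standard diet and its fall in those cells on high-fat diet. Those levels are therefore given as a description only, and tests are confined to contrasts that use neither of these CD206+ wild-type groups. The CD11c+ wild-type groups may not be fully independent of them, as described below.

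C57BL/6J mice supplied the cells, from epididymal fat, and flow cytometry separated them into a CD11c+ population (CD206 low, CD11c high) and a CD206+ population with much CD206 and little CD11c. The mice carried a knockout of A20 restricted to myeloid cells (KO) or were wild type (WT), and were fed either standard diet (SD) or high-fat diet (HFD) over 12 weeks. A20, the product of Tnfaip3, edits ubiquitin chains and thereby limits NF-kB activation. The series addresses whether myeloid A20 loss alters diet-induced obesity and insulin resistance. The 8 groups, each of 4 libraries, are thus HFD KO, HFD WT, SD KO and SD WT for each of the CD11c+ and CD206+ populations. The sources used here do not give the driver of the myeloid deletion or the age of the mice. Whether replicate libraries are from different mice is not stated, so the p-values measure the spread between these libraries, which may in part be technical.

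Library depth, as the sum of gene counts in units of 1e6, was 17.6 to 23.8 with a median of 20.2, and 14314 to 15689 genes were detected per library. Levels are given as CPM, read counts per 1e6 gene counts of the TMM-scaled library. Tnfaip3 lay between 167 and 474 CPM in the 16 KO libraries and between 486 and 1647 CPM in the 16 WT libraries, with no overlap. The sort genes followed the labels: group means of Itgax, which encodes CD11c, were 196 to 320 CPM in CD11c+ groups and 3.41 to 34.4 CPM in CD206+ groups, and those of Mrc1, which encodes CD206, were 453 to 633 CPM and 1458 to 1893 CPM. The macrophage genes Adgre1, which encodes F4/80, and Csf1r, the receptor for CSF1, were high in all 8 groups, and both had their lowest group mean in SD WT CD11c+ cells, at 564 ± 131 CPM for Adgre1 and 1771 ± 436 CPM for Csf1r (SD, n = 4). The sum of 10 macrophage identity genes, which include these and both sort genes, was instead highest there. It was 32182 to 36523 CPM in those libraries and 17535 to 24680 CPM in the other groups. Lyz2, a member of that sum, reached up to 28708 CPM.

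IL-4 and IL-13 act through receptors that share the chain encoded by Il4ra, and the receptor's JAK kinases activate the transcription factor STAT6. STAT6 binds a palindrome in promoters of response genes, Retnla among them, together with C/EBP factors. In lean fat, eosinophils and type 2 innate lymphoid cells are known sources of these cytokines, and macrophages exposed to them are called alternatively activated. Resistin, encoded by Retn, is a relative that mouse adipocytes make.

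Retnla lies at chr16:48842551-48844461 on the plus strand (GRCm38, GENCODE M21), with 599 exonic bases. Its relatives Retnlb, at chr16:48816856-48818892, and Retnlg, at chr16:48872621-48874496, flank it, while Retn is at chr8:3655770-3660110. No annotated gene overlapped Retnla, and none of its 550 exonic stretches of 50 bases occurs in the exons of Retnlb, Retnlg or Retn. Retnlb had 0 to 3 counts per library and Retnlg 0 to 13, against 13322 to 471426 for Retnla. Of the other protein-coding genes within 200 kb, Trat1 had 0 to 12 counts and Dzip3 had 70 to 303 counts. Cip2a was not found among the counted genes under that symbol.

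The promoter is shown because it holds the letters of the IL-4 response site, and the matching stretch of Retnlg, a neighbour that these cells barely expressed, is set beside it. Both are from RefSeq on GRCm38.p6, plus strand, at chr16:48842419-48842535 for Retnla and chr16:48872491-48872607 for Retnlg. Capitals mark the STAT6 palindrome with 4 bases between its arms, TTCNNNNGAA, and the C/EBP-like letters TTGCNNAA.
Retnla: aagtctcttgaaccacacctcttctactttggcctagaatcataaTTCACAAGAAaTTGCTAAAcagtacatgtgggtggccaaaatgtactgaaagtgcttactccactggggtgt
Retnlg: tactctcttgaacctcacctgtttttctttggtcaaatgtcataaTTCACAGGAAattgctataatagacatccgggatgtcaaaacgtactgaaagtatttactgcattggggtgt

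Of the 117 bases, 90 were identical (76.9%). In Retnla the palindrome lay 145 to 136 bases before the RefSeq start, with the C/EBP-like letters 134 to 127 bases before it. The window before that start ends at chr16:48842608, past the GENCODE gene start at chr16:48842551. The distances are thus not counted from the GENCODE start, and the end of the window lies within the GENCODE gene. Counted from 1 at the 5′ end of each Retnla site, Retnlg carried A7G in the palindrome, which leaves its arms whole, and A7T in the C/EBP-like letters, which breaks the match. Outside the stretch shown, the Retnlg promoter held another C/EBP-like match on the minus strand, 246 to 239 bases before its start. Searched on both strands in the 250 bases before the start, the palindrome was found in 5.86% of 27025 promoters and the C/EBP-like letters in 9.55%. NF-kB-like letters, GGGNNNNNCC, were found in 45.4% of promoters and had no match in that of Retnla. A match describes letters and shows no binding.

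Retnla was among the most abundant transcripts of these cells. In SD WT CD11c+ cells the 4 libraries, replicates 1 to 4, held 21437, 14564, 13140 and 23768 CPM. SD WT CD206+ cells held 12486, 12790, 11262 and 10371 CPM. These 8 libraries were the highest of the 32, and the lowest CD11c+ value exceeded the highest CD206+ value. On HFD, WT CD11c+ cells held 702, 1711, 1228 and 741 CPM. WT CD206+ cells on HFD held 716, 1022, 933 and 653 CPM. The ranges of both HFD WT groups overlapped, and they lay wholly below both SD WT groups.

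In A20-deficient cells the group means of Retnla lay between these extremes on either diet. SD KO CD11c+ libraries held 8714, 4753, 3753 and 2619 CPM. HFD KO CD11c+ libraries held 2225, 8570, 3700 and 2940 CPM. Here 1 library of each CD11c+ KO group, replicate 1 on SD and replicate 2 on HFD, stood well above the other three. SD KO CD206+ libraries held 2778, 2048, 1071 and 830 CPM. HFD KO CD206+ libraries held 3471, 1036, 1561 and 1699 CPM, and here too replicate 1 stood well above the others. Within each population the KO ranges on the diets overlapped, and all KO values were below those of the SD WT group of the same population.

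Ordered by mean, the levels were 18227 ± 5174 CPM in SD WT CD11c+, 11727 ± 1119 in SD WT CD206+, 4960 ± 2650 in SD KO CD11c+, 4359 ± 2871 in HFD KO CD11c+, 1942 ± 1059 in HFD KO CD206+, 1682 ± 901 in SD KO CD206+, 1095 ± 475 in HFD WT CD11c+ and 831 ± 175 CPM in HFD WT CD206+ (SD, n = 4 each). The first and the second group of that order, and the second and the third, did not overlap. Every later pair of neighbours overlapped. In bulk RNA, fewer cells making a transcript and less transcript per cell cannot be told apart.

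**Figure D1:**
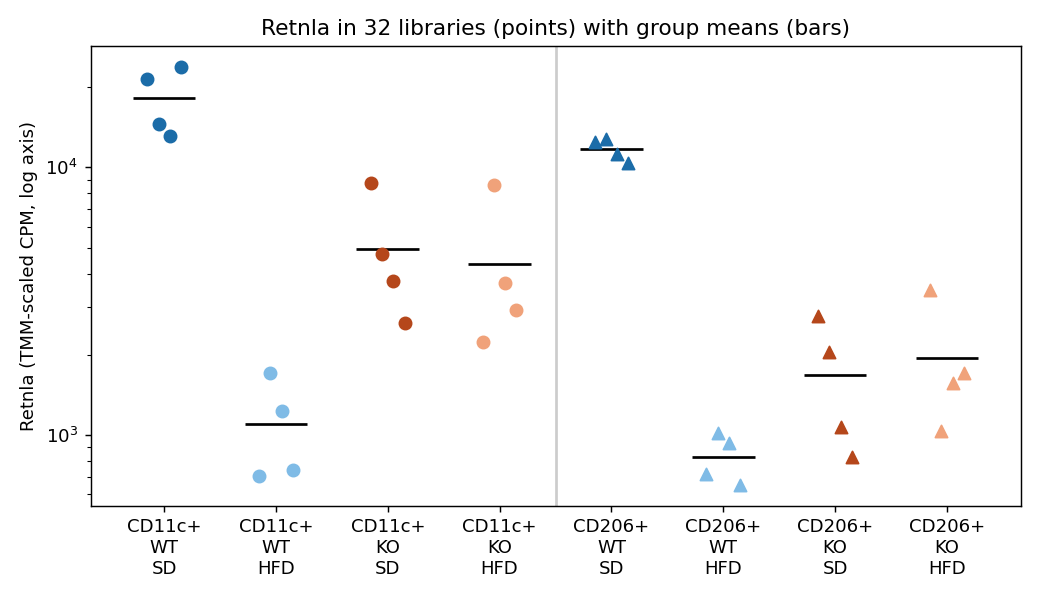
Retnla level in each of the 32 libraries (log axis, TMM-scaled CPM), by group, with a bar at each group's mean. All SD WT libraries lie at 10371 CPM or above, all HFD WT libraries at 1711 CPM or below, and the KO libraries between 830 and 8714 CPM on either diet.

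As a share of all gene counts, Retnla took 1.26% to 2.03% in SD WT CD11c+ libraries and 1.08% to 1.34% in SD WT CD206+ libraries, but 0.0699% to 0.111% in HFD WT CD206+ libraries. Per kilobase of exon it ranked first of 23384 genes with a known length in all 8 SD WT libraries. It ranked 3 to 9 in SD KO CD11c+, 2 to 11 in HFD KO CD11c+, 5 to 20 in HFD KO CD206+ and 9 to 22 in SD KO CD206+ libraries. The lowest ranks were 10 to 28 in HFD WT CD11c+ and 13 to 26 in HFD WT CD206+ libraries. Even at its lowest, the transcript thus stayed within the 28 most abundant per length.

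In CD11c+ WT cells the HFD level was lower by 4.06 ± 0.46 (SE) on the log2 scale, a 16.6-fold ratio of means (log2 fold change -4.06, 95% interval -4.999 to -3.11, adjusted p = 1.811e-08, edgeR's quasi-likelihood test with Benjamini-Hochberg adjustment, n = 4 against 4). In that contrast 46.3% of the 13453 genes tested were called, that is, had an adjusted p under 0.05, and the groups did not overlap for Retnla. The CD206+ WT ratio of means, 14.1, chose the gene and carries no test (27.7% of genes were called there). In CD11c+ KO cells the same diet contrast gave a log2 fold change of -0.19 ± 0.41 (interval -1.02 to 0.65, adjusted p = 0.945), and in CD206+ KO cells 0.21 ± 0.41 (interval -0.63 to 1.04, adjusted p = 0.967). These intervals exclude a fall as large as that of the WT CD11c+ cells, and smaller changes within them were not detectable here. Without 1 of the KO libraries in turn, the CD11c+ KO value ran from -0.74 to 0.24 and the CD206+ KO value from -0.22 to 0.57, so neither has a settled sign. The interaction of genotype with diet in CD11c+ cells, the difference between the KO and WT diet effects, was 3.87 ± 0.60 (interval 2.65 to 5.09, adjusted p = 1.011e-05), and 28.8% of genes were called for it.

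Loss of A20 went with opposite differences on the diets. On HFD, Retnla was 3.98-fold higher in KO than WT CD11c+ cells (log2 fold change 1.99 ± 0.42, interval 1.13 to 2.86, adjusted p = 3.672e-04, edgeR). All 4 KO libraries were above all 4 WT libraries, in a contrast where 38% of all genes were called. On SD it was 3.68-fold lower in KO cells (log2 fold change -1.88 ± 0.42, interval -2.74 to -1.02, adjusted p = 0.00113), again with no overlap, where 26.8% of genes were called. Without HFD KO CD11c+ replicate 2, the highest of its group at 8570 CPM, the HFD value was 1.43 (adjusted p = 0.00592) and the interaction 3.29. The CD206+ populations, not tested here, had fitted log2 differences of 1.22 on HFD and -2.80 on SD, and neither pair of groups overlapped (21.8% and 24.5% of genes were called). The diet and genotype contrasts of a population share WT groups, so they are not independent of each other. Same-numbered CD11c+ and CD206+ WT libraries also deviated together from their group means (r over genes 0.143 to 0.285 on SD, 0.228 to 0.468 on HFD). If they share mice, the levels that chose Retnla carry over into the CD11c+ WT groups. The p-values of contrasts with a CD11c+ WT group may therefore not be free of that choice.

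Between the populations, KO CD11c+ cells held more Retnla than KO CD206+ cells. On SD the log2 fold change was 1.56 ± 0.42 (interval 0.71 to 2.41, adjusted p = 0.00262, edgeR), with ranges overlapping only between the lowest CD11c+ library, at 2619 CPM, and the highest CD206+ library, at 2778 CPM. A two-sided exact permutation test of the same libraries gave p = 0.0571, and on HFD p = 0.0857, with 0.0286 the smallest it allows. On HFD it was 1.17 ± 0.41 (interval 0.32 to 2.01, adjusted p = 0.0220), with ranges that overlap. The HFD call was lost without HFD KO CD11c+ replicate 2 (0.61, adjusted p = 0.224), and without HFD KO CD206+ replicate 2 (adjusted p = 0.0779), replicate 3 (0.0559) or replicate 4 (0.0510). The change of the population difference with diet in KO cells was -0.39 ± 0.58 (interval -1.57 to 0.78, adjusted p = 1.00). Untested, the WT populations differed by a fitted 0.64 on SD, without overlap (63.7% of genes called), and by 0.40 on HFD, with overlap (20.4% called). On SD the KO libraries had the same order, replicates 1 to 4 from high to low, in both populations. On HFD the KO orders were the reverse of each other. From high to low they were replicates 2, 3, 4, 1 in CD11c+ and 1, 4, 3, 2 in CD206+ libraries. With the number as a block over all groups, edgeR gave KO population differences of 1.58 on SD (adjusted p = 0.00129) and 1.14 on HFD (adjusted p = 0.0177). That block joins libraries of different genotypes and diets. With the number as a block within genotype and diet, edgeR gave 1.58 on SD (adjusted p = 4.945e-04) and 1.09 on HFD (adjusted p = 0.0150).

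**Figure D2:**
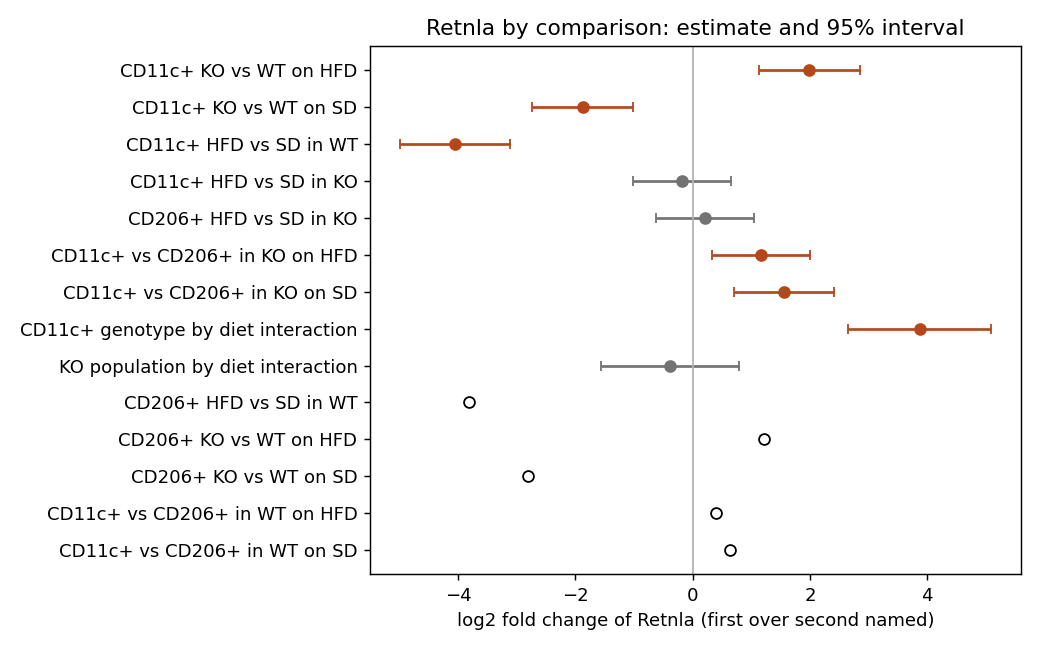
Log2 fold change of Retnla in each contrast with its 95% interval from edgeR. Filled circles are tested contrasts, orange where the adjusted p was under 0.05 and grey otherwise, and open circles are contrasts that use the groups which chose the gene, without a test. The WT diet contrasts lie near -4 and the KO diet contrasts near 0.

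Of the relatives, Retn alone passed the low-count filter. It was low, with group means of 0.205 to 1.13 CPM in CD11c+ and 0.431 to 5.79 CPM in CD206+ groups. In CD11c+ cells Retn fell on HFD in WT (log2 fold change -2.05 ± 0.49, adjusted p = 0.000964) and was higher in KO than WT on HFD (2.45 ± 0.48, adjusted p = 0.00016). On SD its KO against WT value was 0.06 ± 0.41 (adjusted p = 0.936), whereas Retnla was lower in KO. Adipocyte transcripts, of which Retn is one, differed between groups too: 14 adipocyte genes other than Lpl and Fabp4, which macrophages also make, summed to 33.5 to 63.5 CPM in HFD WT CD11c+, 54.4 to 69.2 in SD WT CD11c+, 66.5 to 119 in HFD KO CD11c+ and 67.0 to 80.7 CPM in SD KO CD11c+ libraries. In CD206+ libraries the same sum was 228 to 286 CPM in SD WT and 39.6 to 84.0 CPM in HFD WT, with 179 to 275 in SD KO and 131 to 273 CPM in HFD KO. Their part in the Retn result was not tested.

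Transcripts of the type 2 cytokines upstream of Retnla were close to absent from these sorted cells. Il13 had no count in 31 of 32 libraries, Il5 none in 30, and Il4 reached at most 0.879 CPM. Of 9 ligands and inducing cytokines 6 were tested. In WT CD11c+ cells between diets, 1 of the 6 rose on HFD and none fell, beside 23.8% of all genes that rose and 22.6% that fell. That 1 was Il10, a cytokine that restrains inflammation, with 30.5 CPM on HFD and 9.09 CPM on SD.

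The receptor chain and STAT6 themselves did not pass the test between diets in WT CD11c+ cells. Stat6 had group means of 255 to 316 CPM over all 8 groups, and its HFD against SD value was -0.05 ± 0.08 (adjusted p = 0.604). Il4ra gave -0.16 ± 0.14 (adjusted p = 0.358). Of the 12 receptor signalling genes, 2 rose and 7 fell, beside 23.8% of all genes that rose and 22.6% that fell. The list's median log2 fold change was -0.34 against 0.01 for all genes. Cish, a STAT-induced feedback inhibitor of cytokine receptors, fell most (-3.88 ± 0.32, from 69.97 to 4.72 CPM, adjusted p = 3.22e-11), and Irs2, an adaptor of the IL-4 and insulin receptors, fell by 1.29 ± 0.19 on the log2 scale.

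In KO against WT CD11c+ cells on HFD, 9 of these 12 genes were higher and none lower, where 18.6% of all genes were higher and 19.4% lower. Il2rg, the common gamma chain, was higher by 2.20 ± 0.19, Il13ra1 by 1.21 ± 0.11, Cish by 2.36 ± 0.31 and Il4ra by 0.63 ± 0.14. On SD 7 were higher and 3 lower, beside 13.2% of all genes higher and 13.6% lower. There Il2rg was again higher in KO (1.41 ± 0.19), while Cish was lower (-1.08 ± 0.28), as Retnla was. The median of the list was 0.48 on HFD and 0.31 on SD, against -0.02 for all genes on each diet.

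Among 18 transcription factors of the alternative program, 4 rose and 8 fell on HFD in WT CD11c+ cells, beside 23.8% and 22.6% of all genes, with a median of -0.28. Irf4, a factor that macrophages need for much of the response to IL-4, fell by 2.51 ± 0.23 on the log2 scale (from 150 ± 19.3 to 26.3 ± 7.15 CPM, adjusted p = 3.82e-10). The clock-linked repressors Bhlhe40 (-2.07 ± 0.26) and Nfil3 (-2.06 ± 0.28) fell as well, and Maf, a factor of resident macrophages, rose by 1.90 ± 0.14. Irf4 was lower in KO than WT cells on SD (-1.64 ± 0.22, adjusted p = 1.69e-06), and on HFD its value was 0.49 ± 0.23 (adjusted p = 0.0873). Of the 18 factors, KO against WT gave 6 higher and 4 lower on HFD, beside 18.6% and 19.4% of all genes, and 3 higher and 4 lower on SD, beside 13.2% and 13.6%. Pparg, a lipid-sensing nuclear receptor, was lower in KO on HFD (-1.31 ± 0.20), opposite to Retnla.

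The 23 tested genes taken here as IL-4 response genes of mouse macrophages are a list that leaves out Retnla. It holds the sort gene Mrc1, Cd209a, also counted below as a dendritic cell marker, and Vwf, also a marker of endothelial cells. In WT CD11c+ cells 12 fell and 4 rose on HFD, beside 22.6% and 23.8% of all genes, with a median of -1.72 against 0.01 for all genes. The chemokines Ccl17 (from 22.6 ± 11.4 to 0.676 ± 0.548 CPM, log2 fold change -5.04 ± 0.65) and Ccl24 (from 128 ± 25.1 to 14.3 ± 3.66 CPM, -3.16 ± 0.32) were among those that fell. So were Alox15, a lipoxygenase (-4.73 ± 1.08), and the lectin Cd209a (-3.58 ± 0.51). Slc7a2, an arginine transporter, rose by 3.12 ± 0.44, and Tfec, a transcription factor, by 2.89 ± 0.25.

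In KO against WT on HFD, 13 of the 23 were higher and 1 lower, beside 18.6% and 19.4% of all genes, with a median of 0.96. Alox15 (3.71 ± 1.12), Pdcd1lg2, the PD-L2 ligand (3.53 ± 0.47), Chil3, the chitinase-like protein Ym1 (3.28 ± 0.98), and Ccl17 (2.58 ± 0.63) changed most. On SD 6 were higher and 7 lower, beside 13.2% and 13.6% of all genes, with a median of -0.70. There Tfec (3.46 ± 0.25), Slc7a2 (3.01 ± 0.44) and Ch25h, a cholesterol hydroxylase (2.39 ± 0.45), were higher in KO while Arg1 was lower (-2.46 ± 0.68, adjusted p = 0.00742). The interaction of genotype with diet passed for 14 of the 23, 11 with a positive sign, as for Retnla, and 3 with a negative one, beside 13.9% and 15% of all genes. Its median was 1.69 against -0.01.

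**Figure D3:**
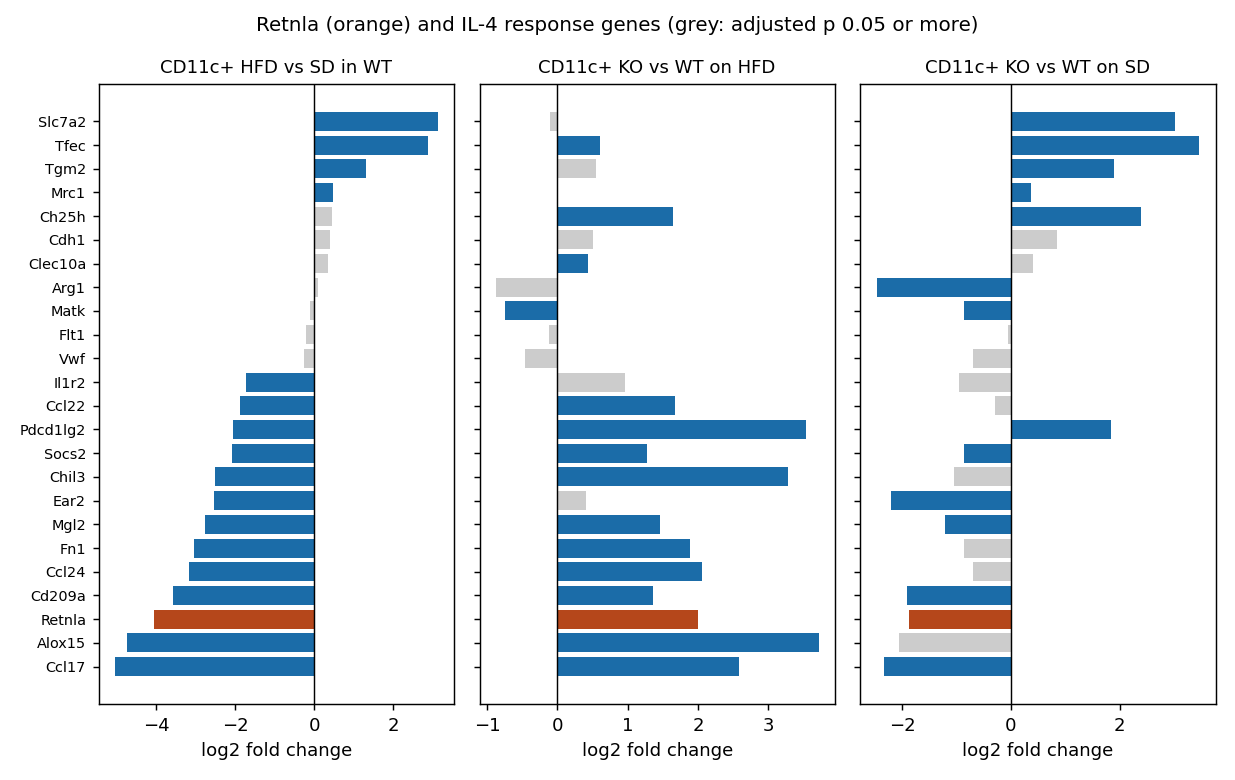
Log2 fold changes of the tested IL-4 response genes and Retnla (orange) in 3 CD11c+ contrasts from edgeR, 1 bar per gene, drawn from 0. Grey bars did not pass the adjusted p threshold of 0.05. Most members lie below 0 for HFD against SD in WT and above 0 for KO against WT on HFD, while both directions occur on SD.

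The textbook markers of alternative activation did not all follow Retnla. Arg1, arginase 1, held 10.3 ± 3.73 CPM in HFD WT CD11c+ and 9.66 ± 8.71 CPM in SD WT CD11c+ libraries (log2 fold change 0.10 ± 0.61, adjusted p = 0.912), and in the SD WT group its libraries ran from 1.07 to 20.5 CPM. Chil3 was low everywhere, and its group means ran from 1.14 to 12.98 CPM. Mrc1, which is also the sort marker, rose on HFD in WT CD11c+ cells by 0.48 ± 0.11. In WT CD206+ libraries Mrc1 was instead lower on HFD, as Retnla was, at 10.33 to 10.62 log2 CPM against 10.69 to 11.07 on SD. A correlation over all libraries mixes these opposite directions. Over all 32 libraries the Pearson correlation of log2 CPM with Retnla was -0.18 for Arg1, -0.10 for Chil3, -0.28 for Mrc1, -0.34 for Il4ra and -0.11 for Stat6. For Mgl2, a lectin of the same program, it was 0.60 over all libraries but 0.95 over the 16 CD11c+ and 0.96 over the 16 CD206+ libraries, since Mgl2 was higher in CD206+ than in CD11c+ cells of each genotype and diet whereas Retnla was not. These libraries share groups and depth, so the values describe likeness and are given without a test.

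**Figure D4:**
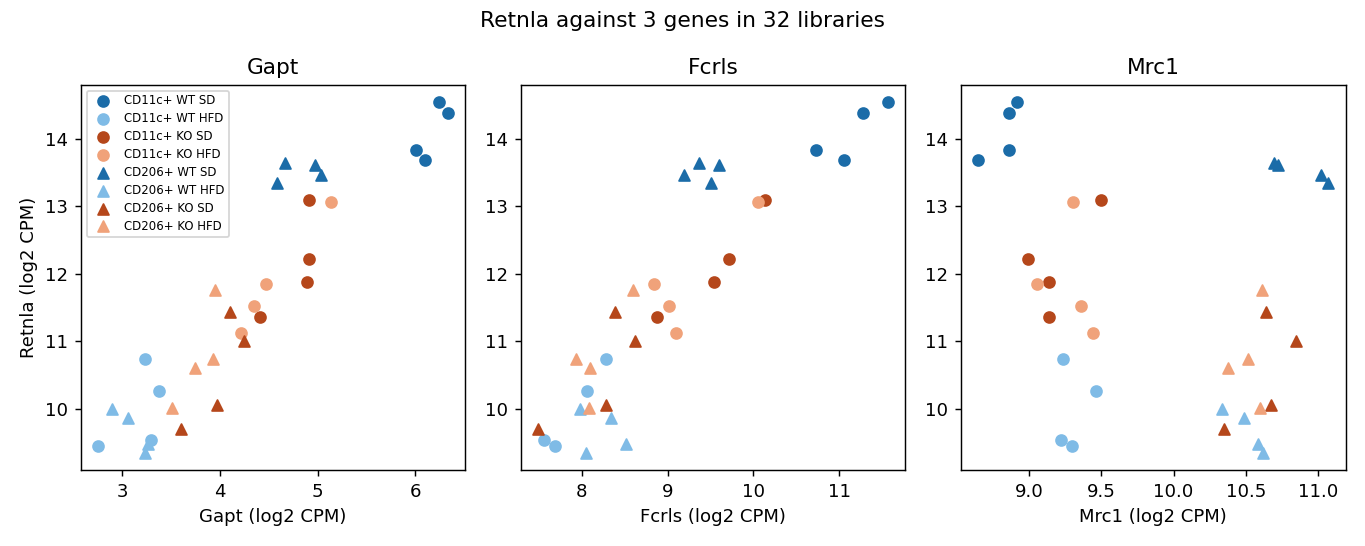
Retnla level (vertical axis) against those of Gapt, Fcrls and Mrc1 (horizontal axes) in the 32 libraries, all in log2 CPM. Colours give genotype and diet and symbols the population. Gapt and Fcrls rise with Retnla (r = 0.92 and 0.90), and Mrc1 splits by population (r = -0.28).

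Genes that accompany RELM-alpha in macrophages of the serous cavities form another list. Its 13 members include Irf4, Cd209a, Clec10a and Mgl2 from the lists above and the sort gene Itgax. Of the 13, none rose and 11 fell on HFD in WT (23.8% and 22.6% of all genes), and 11 were higher and 1 lower in KO than WT on HFD (18.6% and 19.4%). On SD, none was higher and 4 were lower in KO (13.2% and 13.6%). The medians were -1.25, 1.09 and -0.19. Cd226, an adhesion receptor that marks these cells, held 270 ± 55.4 CPM in SD WT and 22.2 ± 10.9 CPM in HFD WT CD11c+ libraries (log2 fold change -3.60 ± 0.29), and 170 ± 42.9 CPM in HFD KO. The KO against WT value of Cd226 on SD was -0.19 ± 0.26 (adjusted p = 0.635). Ccr2, the receptor that draws monocytes into tissue, was higher in KO on HFD by 1.81 ± 0.20.

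In KO cells between diets, none of the members of these lists was called in either population, and nearly no gene was. In CD11c+ KO cells 1 of the 13453 genes, or 0.00743%, was called. With an unadjusted p under 0.05 there were 1221 genes, and DESeq2 called 51. In CD206+ KO cells edgeR called 0 genes (0%), 831 had an unadjusted p under 0.05, and DESeq2 called 18. The contrast of population by diet in KO cells likewise had 0 calls (0%), with 406 at an unadjusted p under 0.05.

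Between populations of KO cells, where 45.8% of genes were called on HFD and 51.7% on SD, the IL-4 response genes split. Of 23, 10 were higher and 6 lower in CD11c+ cells on HFD, and 11 higher and 6 lower on SD, where 23.3% and 22.5% of all genes were higher and lower on HFD and 25.6% and 26.1% on SD. The serous list, which holds the sort gene Itgax, gave 7 higher and 2 lower of 13 on each diet. Genes of LYVE1+ resident macrophages went the other way, with 20 of 21 lower in CD11c+ cells on each diet and none higher.

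Markers of other cell types differed between the groups as well, some along with Retnla and some against it. The summed level of 10 dendritic cell markers, which include Cd209a and Batf3, was 398 to 688 CPM in SD WT CD11c+ and 320 to 393 CPM in SD WT CD206+ libraries. It was 50.3 to 129 CPM in HFD WT CD11c+ and 47.2 to 57.8 CPM in HFD WT CD206+ libraries, with 129 to 321 CPM in KO CD11c+ and 52.0 to 82.5 CPM in KO CD206+ libraries. Much of this sum came from few genes: in SD WT CD11c+ libraries Cd209a, counted above among IL-4 response and serous genes, held 294 ± 110 CPM and Batf3 105 ± 9.60 CPM, while Flt3, Zbtb46, Xcr1, Clec9a and Itgae had means of 0.392 to 16.1 CPM. Of the 10, on HFD in WT CD11c+ cells 4 fell and none rose, beside 22.6% of all genes that fell and 23.8% that rose. Zbtb46, a factor of conventional dendritic cells, fell by 1.79 ± 0.23 on the log2 scale, and Flt3, their growth factor receptor, gave -0.96 ± 0.48 (adjusted p = 0.101). Adgre1 went against Retnla: it rose by 1.56 ± 0.13 on HFD in WT CD11c+ cells, and its r with Retnla over the libraries was -0.86. The summed macrophage identity genes did not: they held 32182 to 36523 CPM in SD WT CD11c+ and 21657 to 24559 CPM in HFD WT CD11c+ libraries. In KO against WT CD11c+ cells 9 dendritic markers were higher and none lower on HFD (18.6% and 19.4% of all genes), and 3 were higher and 2 lower on SD (13.2% and 13.6%), with a median of 0.08 where Retnla was lower. Stromal markers went against Retnla in 2 contrasts, with 9 of 12 higher and 1 lower on HFD in WT CD11c+ cells and 11 of 12 lower and 1 higher in KO on HFD. On SD they did not, with 0 higher and 2 lower in KO CD11c+ cells (13.2% and 13.6% of all genes). Their median there was -0.70 against -0.02 for all genes, where Retnla was lower too. Of 6 mast cell markers 5 rose and none fell on HFD in WT, and of 9 T cell markers 8 were higher and 1 lower in KO on HFD. The part of these cells in the Retnla result was not tested.

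Siglecf, a marker of eosinophils that some macrophages share, held 17.7 ± 1.19 CPM in SD WT CD11c+ libraries and group means of 2.83 to 3.57 CPM in the other CD11c+ groups. Ccr3, the eotaxin receptor, went the other way: it held 0.738 ± 0.141 CPM in SD WT and 16.5 ± 5.20 CPM in HFD WT CD11c+ libraries, and its r with Retnla over the 32 libraries was -0.73. Of the 4 tested eosinophil markers 1 thus rose and 1 fell on HFD in WT CD11c+ cells, beside 23.8% of all genes that rose and 22.6% that fell. The list's sum was 18.1 to 20.3 CPM on SD and 16.8 to 25.9 CPM on HFD. The eosinophil granule gene Epx was at 0 in 31 of 32 libraries, and Prg2 reached at most 0.898 CPM. Il1rl1, the IL-33 receptor found on type 2 lymphoid cells and mast cells, held 183 ± 26.9 CPM in SD WT CD11c+ libraries and fell by 2.23 ± 0.21 on the log2 scale on HFD. Of the 5 tested markers of these lymphoid cells 2 fell and 2 rose in that contrast, beside the same shares of all genes. Those that fell were Il1rl1 and Areg, an epidermal growth factor receptor ligand. Those that rose were Il7r, the IL-7 receptor (1.99 ± 0.22), and Rora, a nuclear receptor (1.01 ± 0.18). Gata3, the defining factor of those lymphoid cells, held 1.46 ± 0.697 CPM in the SD WT CD11c+ libraries. The 6 epididymal epithelium markers summed to 0 to 1.43 CPM. The part of eosinophils and lymphoid cells in the Retnla levels was not tested.

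The genes whose level was most like that of Retnla were ranked by Pearson's r of log2 CPM over the 32 libraries among 13452 genes. Of these, 7 had r above 0.9, 77 above 0.8 and 58 below -0.8. Highest were Gapt, an adaptor that binds GRB2 (r = 0.92), Mucl1 (0.92), Aff3, a transcription elongation factor (0.92), Acy1, an aminoacylase (0.91), Pdlim1, a cytoskeletal adaptor (0.91), and Fgfr1, a fibroblast growth factor receptor (0.91). Next came Fcrls, an Fc receptor-like scavenger receptor (0.90), Akr1c18, a hydroxysteroid dehydrogenase (0.90), Sox12, a transcription factor (0.90), Stxbp6, a SNARE-binding protein (0.90), Gfra2, a receptor for neurturin (0.89), and Serpinb1a, an inhibitor of neutrophil proteases (0.89). Without the 2 libraries farthest from the median of Retnla, both of SD WT CD11c+, these 12 had r of 0.86 to 0.92. Without the 8 SD WT libraries they had r of 0.66 to 0.90, and only 2 of them were among the 12 highest of that ranking.

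Gapt held 72.1 ± 7.38 CPM in SD WT CD11c+ and 28.3 ± 4.37 CPM in SD WT CD206+ cells, 8.98 ± 1.62 and 8.58 ± 1.02 CPM in the same populations on HFD, and 13.8 to 27.7 CPM in the KO groups. Like Retnla it was lowest in HFD WT cells and intermediate in KO cells. Fcrls, at 2339 ± 566 CPM in SD WT CD11c+ and 243 ± 56.3 CPM in HFD WT CD11c+ libraries, had r of 0.99 over the 16 CD11c+ libraries and 0.89 over the 16 CD206+ libraries. Aff3 was nearly confined to SD WT cells, with 34.9 ± 9.94 and 25.6 ± 4.84 CPM there and at most 5.32 CPM as the mean of any other group. Mucl1 was low, at most 14.0 ± 2.39 CPM, and highest in SD WT CD206+ cells.

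Leaving out such symbols, the lowest correlations belonged to Gna13, a G protein subunit (r = -0.94), Camk2d, a calcium-dependent kinase (-0.92), Atp7a, a copper transporter (-0.90), Rbm47, an RNA-binding protein (-0.89), Tlr13, a sensor of bacterial ribosomal RNA (-0.88), and Stx12, an endosomal syntaxin (-0.88). Symbols of clone or gene model numbers are those left out. Gna13 held 134 ± 5.74 CPM in SD WT CD11c+ and 261 ± 11.5 CPM in HFD WT CD11c+ libraries. Tlr13 went from 39.7 ± 9.05 to 360 ± 31.0 CPM over the same groups, with 107 to 149 CPM in the KO groups.

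Much of this likeness is between groups, so it was also measured after each group's mean was removed. The 6 highest values were then those of Smo, the Hedgehog transducer (r = 0.82), Ryk, a Wnt receptor (0.81), Ptgs1, cyclooxygenase 1 (0.79), Fcrls (0.79), Batf3, a transcription factor of dendritic cells (0.79), and F13a1, coagulation factor XIII (0.78). Only Fcrls was also among the 12 highest over the libraries, and Batf3 stood just outside, with r of 0.89. F13a1 had r of 0.17 over all libraries, since it was far higher in CD206+ than in CD11c+ groups, as in the SD WT cells with 5239 ± 805 against 1272 ± 234 CPM. Irf4, with r of 0.86 over the libraries, had r of 0.12 within groups.

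**Figure D5:**
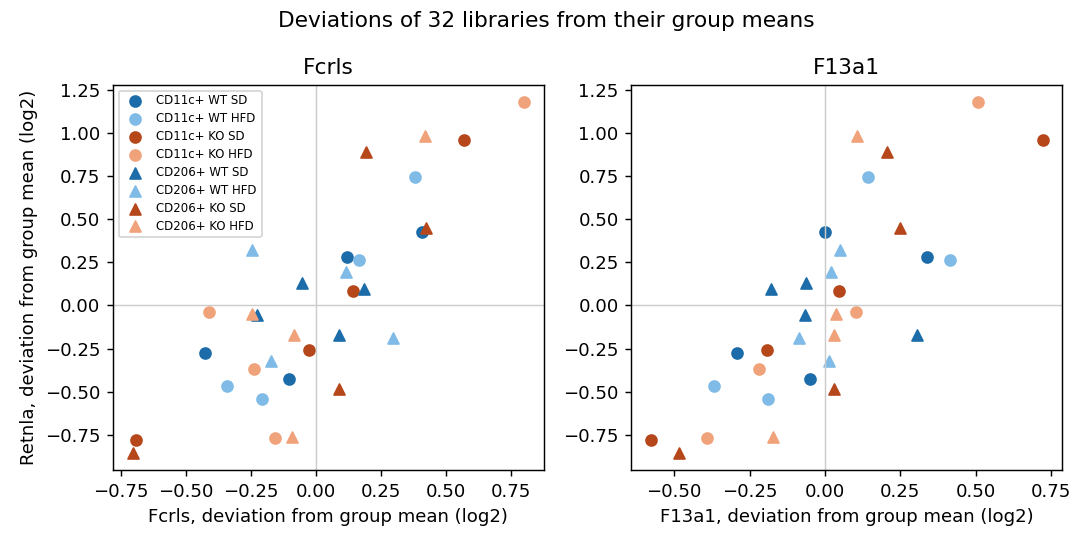
Deviation of Retnla from its group mean (vertical axis) against those of Fcrls and F13a1 (horizontal axes), in log2 CPM, 1 point per library. Libraries above their group mean for Retnla tend to be above it for both genes, with r of 0.79 for Fcrls and 0.78 for F13a1.

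Of the 12 genes most like Retnla, 8 had a promoter in the RefSeq table. None of these 8 held the STAT6 palindrome that Retnla carries, and 1, Pdlim1, held the C/EBP-like letters, beside shares of 5.86% and 9.55% over all promoters. The NF-kB-like letters were in 4 of the 8, beside 45.4% of all promoters.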

How the data were processed

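The authors deposited raw counts per gene, as whole numbers, in 32 tables. Per the submitters' processing notes the mouse build was mm10 (GRCm38) and the tools were TopHat2 2.1.0, SAMtools 0.1.18, Trimmomatic 0.35 and FastQC 0.11.4. The sources used here do not give the counter, annotation release, strand setting or library kit, so counts of overlapping or antisense genes are uncertain. The 5 entries without a gene, among them reads outside genes (5.16% to 11.1%) and ambiguous reads (0.992% to 1.48%), entered neither library sizes nor tests. Groups and replicate numbers came from the titles.

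Tests used edgeR 4.0.16 in R 4.3.3: filterByExpr with a minimum count of 10 left 13453 genes, libraries were scaled by TMM (factors 0.855 to 1.08), and all 32 entered 1 quasi-likelihood fit with 8 group means. P-values were adjusted by Benjamini-Hochberg over all genes tested in a contrast, with a threshold of 0.05. SE is the absolute log2 fold change over the root of F. Likeness used log2 CPM with a prior count of 2. The steps were tested on simulated data. No replicates agreed within sampling noise (chi-square of 10.4 to 63.8 per degree of freedom between replicates of a group).

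Retnla and the gene lists were chosen with earlier results of these data known. Named were Retnla, its relatives, identity and sort genes, up to 4 members of a list with the largest change past the threshold, and the 12 highest, 6 lowest and 6 highest within-group correlations. Stat6, Il4ra, Il13ra1, Arg1, Chil3, Mgl2, Pparg, Ccr2, Flt3, Zbtb46, Siglecf, Epx, Prg2, Il1rl1, Gata3, and, in contrasts where other members changed more, Cish, Irf4 and Tfec were named outside that rule after their values were seen. Some genes and 1 list are not reported here.

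Same-numbered CD11c+ and CD206+ libraries deviated together from their group means in SD KO (r over genes 0.143 to 0.323), SD WT (0.143 to 0.285) and HFD WT (0.228 to 0.468), but in HFD KO only 2 of 4 pairs had r above 0.1. Alternatives were other scalings, no filter, DESeq2 1.42.0, replicate blocks, a two-sided exact permutation test, a fit of the compared groups alone, and each library left out in turn.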

Additional observations from a re-analysis of the deposited data

Results flagged for a closer look

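The effect of diet on Retnla differed between the genotypes in CD11c+ cells. The interaction of genotype with diet was 3.87 on the log2 scale (SE 0.60, adjusted p = 1.011e-05, edgeR's quasi-likelihood test). WT libraries ran from 13140 to 23768 CPM on SD and from 702 to 1711 CPM on HFD, without overlap, while KO libraries ran from 2619 to 8714 CPM on SD and from 2225 to 8570 CPM on HFD.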

How the results depend on the processing

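The tests of Retnla for diet in WT, for genotype on each diet and for their interaction in CD11c+ cells kept direction and side of the threshold under every alternative run, with log2 values of -4.38 to -3.89 (diet), 1.43 to 2.33 (genotype, HFD), -2.29 to -1.68 (genotype, SD) and 3.29 to 4.28 (interaction). The higher level in CD11c+ than CD206+ KO cells on HFD no longer passed in a fit of these groups alone (1.19, adjusted p = 0.0519) or by an exact permutation test (1.11, p = 0.0857), and leaving out 1 library gave 0.61 to 1.61. It also missed the threshold without HFD KO CD206+ replicate 2 (0.96), 3 (1.10) or 4 (1.11). On SD the exact permutation test gave 1.58 (p = 0.0571, where the smallest p it allows is 0.0286). The cause was not tested. Values near 0 changed sign when a library was left out: diet in CD11c+ KO cells, -0.74 to 0.24 (0.035 without HFD KO replicate 1, 0.24 without SD KO replicate 1), diet in CD206+ KO cells, -0.22 to 0.57 (-0.22 without HFD KO replicate 1, -0.025 without SD KO replicate 4), and population by diet in KO cells, -0.96 to 0.034 (0.034 without HFD KO CD206+ replicate 1, 0.018 without SD KO CD11c+ replicate 1). Calls for diet in CD11c+ KO cells went from 1 to 0 with the replicate block, 0 in a fit of these groups alone, 51 with DESeq2 and 0 to 80 with 1 library left out. In CD206+ KO cells they went from 0 to 1 without a filter, 18 with DESeq2 and 0 to 7 with 1 library left out. The replicate block changed no call for Retnla. Of the 12 genes most like Retnla, 6 were shared with the ranking by Spearman's rho, 2 with that without the 8 SD WT libraries and 3 with that over 8 group means. Of counts of list members, 23 moved by over 1.5 times and 859 did not.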
